A study of Oncorhynchus mykiss with 6 samples.

Results

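Genes of the cell cycle were followed in rainbow trout (Oncorhynchus mykiss) liver at 18 °C (control, 3 libraries) and after heat stress at 24 °C for 8 h (heat, 3 libraries). A gene was taken as a member when the authors' annotation column gave the cell cycle pathway (ko04110), or when its symbol began with that of a cyclin A, B or E, CDK1, CDC20, CDC25, a polo-like or Aurora kinase, a BUB protein, a kinesin, a centromere protein, an MCM protein, a condensin subunit, TOP2A, TPX2 or PRC1. Symbols beginning with cdkn1 were left out. The rule found 94 members among the 5045 listed genes, 17 by pathway alone, 64 by symbol alone and 13 by both. The pathway column keeps 8 characters, which is room for 1 pathway identifier, so several cyclins and CDK1 were found by symbol only. Per the design text, the study profiled the mRNA of both groups. The labels word the exposure as one of the liver and do not say whether whole fish were warmed, and no strain, age or sex is used here.

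A dividing cell copies its DNA once in S phase and separates the copies in mitosis. MCM proteins load onto replication origins and become the core of the helicase that opens the DNA. Cyclins A and B activate the kinase CDK1 to start mitosis, condensin and topoisomerase compact the chromosomes, kinetochores join them to the spindle, and mitotic kinesins build and elongate that spindle. The spindle checkpoint holds back separation until every chromosome is attached. Most adult hepatocytes are quiescent, so the transcripts of these genes are usually scarce in liver. Many other kinesins carry cargo in cells that do not divide.

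Levels are given in FPKM (fragments per kilobase of transcript, scaled to the size of the library), as the authors deposited them. Fold changes come from limma-voom on the deposited counts, with libraries scaled to whole-library totals, which were worked out by dividing counts by FPKM. The counts over the listed genes ranged from 1409460 to 1421082 in the control libraries and from 2663575 to 3586127 in the heat libraries. Relative to control replicate 1, the whole-library totals used for scaling were 0.999 to 1.02 in control and 1.14 to 1.55 in heat. Every listed gene carried an adjusted p of 0.05 or less and at least a 2-fold change in the authors' deposited table. A test that passes therefore says little by itself, and the direction, the size and the level of each change carry the description. The libraries are not stated to come from separate fish, so p-values cover only how far these libraries scatter, and that scatter may be technical. In a bulk tissue, fewer dividing cells and less RNA per dividing cell cannot be told apart.

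Of the 94 members, 92 had enough counts to test (at least 10 in 3 libraries). In heat 85 of them fell and 7 rose (limma-voom, adjusted p under 0.05 after Benjamini-Hochberg correction). Lower members thus made up 92.4% of those tested, beside 41.9% of all 4766 tested listed genes. Higher members made up 7.61%, beside 58.1%. The count filter can be met by the 3 libraries of 1 group, so a gene may pass only through the group where it is high. Without the filter 87 members were called lower and 7 higher. With median-of-ratios scaling, which assumes that most listed genes do not change, 85 members fell and 3 rose, and over all tested genes 1996 fell and 1678 rose in place of 1996 and 2770. That scaling moved the median log2 fold change of all tested genes by -0.91, so falls came out larger and rises smaller. The median log2 fold change was -1.78 over the tested members and 1.13 over all tested genes. Among lower genes alone the median was a 3.56-fold fall for the members and a 2.76-fold fall for all lower genes. A fall of at least 4-fold was seen in 34 members, or 37.0% of those tested, beside 9.02% of all tested genes. Within the lower tested genes alone, the share was 40% for the members and 21.5% for all. The control and heat libraries did not overlap in FPKM in any of the 94 members, nor in 99.4% of all listed genes.

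**Figure D1:**
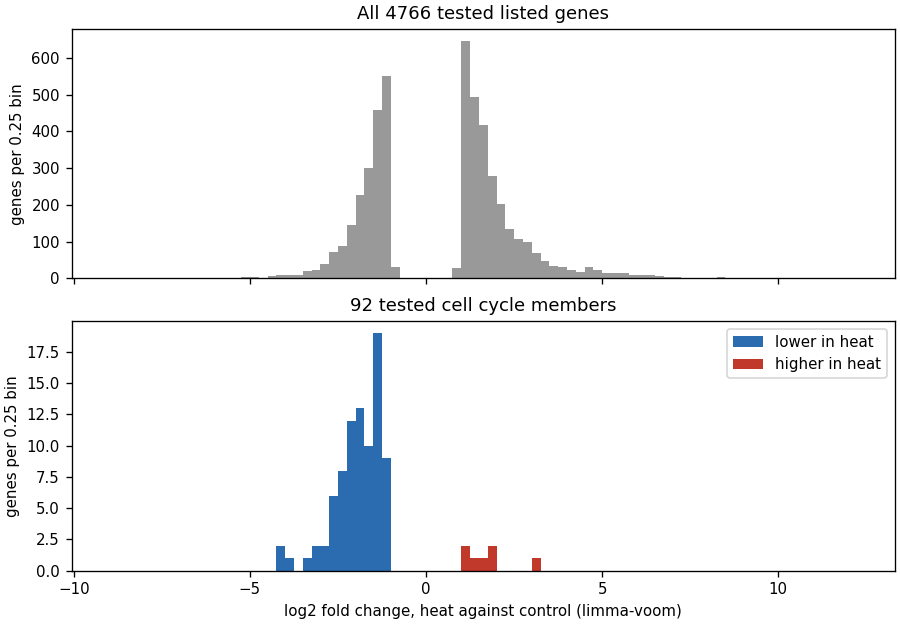
Histograms of the log2 fold change (x axis, heat against control, limma-voom) with the number of genes per bin on the y axis, for all 4766 tested listed genes (top) and the 92 tested members (bottom). The gap around 0 comes from the authors' selection of the list, and 85 members lie left of it and 7 right of it.

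The median member had a control mean of 1.41 FPKM, beside 1.14 FPKM over all listed genes, and a heat mean of 0.442 FPKM, beside 1.499 FPKM. The control mean was at least 1 FPKM in 60 of the 87 members that were lower in heat, and the heat mean in 17. Summed over these 87 genes, the level was 204.0, 202.8 and 206.9 FPKM in the controls. In the heat libraries, in order of replicate number, the sum was 63.7, 62.9 and 59.8 FPKM. The 3 heat sums lay close together. Their distance from the controls was set by taking only genes that were lower in heat, from a list of changed genes. The median gene of these 87 stood at 28.9%, 29.2% and 25.5% of its control mean in heat replicates 1 to 3. Of the 87 genes, 21, 30 and 36 had their lowest heat level in heat replicates 1, 2 and 3. These shares were 24.1%, 34.5% and 41.4%, beside 32.9%, 31.3% and 35.8% of all lower listed genes. For 16 of the 87 genes the heat libraries together held fewer than 30 counts, so their folds are loosely set.

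All 14 listed genes of replication licensing fell, beside 41.9% of all tested listed genes, with a median log2 fold change of -2.27. They include each of the subunits MCM2 to MCM7, which form the ring of the replicative helicase. The gene mcm3 measured 2.48, 2.97 and 2.72 FPKM in the control libraries and 0.099, 0.232 and 0.435 FPKM in the heat libraries. Its heat libraries differed more than 4-fold among themselves, yet the highest lay far below the lowest control value. The fall was 13.7-fold (log2 fold change -3.78 ± 0.38 SE, adjusted p = 9.13e-13), and 9.02-fold without heat replicate 1.

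For mcm2, copy 1 measured 1.85, 1.58 and 1.58 FPKM in control and 0.169, 0.086 and 0.214 FPKM in heat, a 10.7-fold fall. Copy 2 fell from 0.656 ± 0.0371 to 0.0623 ± 0.076 FPKM (SD, n = 3), with 3, 0 and 8 counts in the heat libraries. Its fitted fall of 16.5-fold became 8.44-fold without heat replicate 2 and 32.6-fold without heat replicate 3, so its size is not settled by these counts. The copies of mcm5 fell 9.24-fold and 7.09-fold, the former 14.8-fold without heat replicate 1. The more abundant subunit gene mcm7 measured 5.57, 3.34 and 5.01 FPKM in control and 1.28, 1.25 and 1.23 FPKM in heat. It spread widely among the controls and hardly at all in heat, and fell 3.59-fold (adjusted p = 2.64e-12).

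The MCM6 gene zmcm6-a, an MCM6 form named zygotic in its description, fell 4.77-fold from 2.23 ± 0.111 FPKM, and Mcm6 fell 3.17-fold from 0.531 ± 0.156 FPKM (SD, n = 3). For mcm4, copy 1 fell 2.45-fold from 2.12 ± 0.228 FPKM and copy 2 fell 4.85-fold from 0.871 ± 0.225 FPKM (SD, n = 3), or 8.38-fold without heat replicate 1. Over the 10 subunit genes the log2 fold change ranged from -4.04 to -1.29. The genes around the ring moved the same way. The helicase partner cdc45 fell 5.02-fold, on 14 counts over the heat libraries. The origin recognition genes orc5 and orc1 fell 3.08-fold and 2.72-fold, and mcm10, which helps to start the helicase, fell 2.52-fold.

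Chromosome structure genes showed smaller and more even falls, with log2 fold changes between -1.61 and -1.12 in all 9. Over all tested listed genes 41.9% fell. The topoisomerase gene top2a, which untangles sister DNA, measured 4.55, 4.65 and 4.48 FPKM in control and 2.07, 1.39 and 1.71 FPKM in heat. The controls agreed closely, and the fall was 2.63-fold (adjusted p = 7.87e-14). Each of the 6 non-SMC condensin subunits was listed. The condensin I genes ncapd2, ncaph and ncapg fell 2.49-fold, 3.04-fold and 2.68-fold. The condensin II genes ncapd3, ncaph2 and ncapg2 fell 2.27-fold, 2.39-fold and 2.29-fold. Their control means lay between 0.459 FPKM for ncapg and 2.68 FPKM for ncapd2. Cohesin, the ring that holds sister chromatids together, was represented by rad21a and smc1a. The former fell 2.40-fold from 8.77 ± 0.673 FPKM and the latter 2.17-fold from 4.49 ± 0.28 FPKM (SD, n = 3).

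Of the 9 member genes for mitotic cyclins, CDK1 and its direct regulators, 8 fell and 1 rose. The shares over all tested listed genes were 41.9% and 58.1%. The kinase gene cdk1 had the highest level, at 16.2, 17.0 and 17.1 FPKM in the control libraries for copy 1 and 4.91, 5.41 and 3.76 FPKM in heat. Its copy 2 fell 2.69-fold, from 4.57 ± 0.588 to 1.71 ± 0.21 FPKM (SD, n = 3). Every heat library lay below every control in both copies.

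For ccnb1, which encodes cyclin B1, copy 1 measured 3.98, 5.10 and 5.11 FPKM in control and 1.03, 0.533 and 0.788 FPKM in heat. Copy 2 measured 4.87, 3.72 and 4.47 FPKM in control and 0.88, 0.619 and 0.791 FPKM in heat. Both copies were therefore at the same low level in heat and fell by similar factors, 5.91-fold and 5.56-fold (adjusted p = 1.94e-11 and 2.17e-11). The cyclin A2 gene ccna2 fell 5.73-fold in copy 1 and 3.06-fold in the copy written CCNA2. The cyclin B3 gene fell 4.07-fold as ccnb3 and 5.22-fold as CCNB3.

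The exception was pkmyt1, whose membrane-bound kinase phosphorylates CDK1 and thereby holds it inactive. It measured 0.551, 0.265 and 0.474 FPKM in control and 1.63, 1.503 and 1.48 FPKM in heat. All heat libraries were above all controls, and the rise was 3.67-fold (log2 fold change 1.88 ± 0.30 SE, adjusted p = 2.28e-07). With median-of-ratios scaling the log2 fold change of pkmyt1 was 0.96 (limma-voom, adjusted p = 0.00427). Among the 30 members that carried the pathway annotation it was the only one that rose, against 29 that fell. The shortened column holds 1 pathway identifier per gene, and cdkn1 genes were left out, so this count does not cover the whole pathway. Rises among genes of the wider pathway lists are given below.

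The 10 mitotic kinase genes among the members all fell, by 2.18-fold to 5.16-fold, beside 41.9% of all tested listed genes that fell. The polo-like kinase PLK1, which drives entry into mitosis and spindle assembly, measured 2.37, 1.87 and 2.25 FPKM in control and 0.593, 0.367 and 0.654 FPKM in heat for copy 1. That copy fell 4.05-fold and copy 2 fell 3.21-fold. The spindle-pole kinase gene aurka also fell 4.05-fold. The more abundant aurkb, the kinase of the chromosomal passenger complex, measured 4.53, 4.13 and 4.39 FPKM in control and 1.92, 1.64 and 1.80 FPKM in heat. This was a smaller fall of 2.41-fold, and 2.18-fold for copy 2.

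Among checkpoint kinases, BUB1 fell 5.16-fold and its copy bub1 4.74-fold, Bub1b 3.67-fold, bub1bb 2.41-fold and ttk, which starts checkpoint signalling, 2.41-fold. Of the checkpoint and anaphase members that are not kinases, all 4 fell, beside 41.9% of all tested listed genes. Among genes of this role outside the membership rule, cdc16 rose 2.04-fold, while anapc5, anapc7 and 2 rows of CDC23 fell. With median-of-ratios scaling the rise of cdc16 did not pass, at a log2 fold change of 0.12. The checkpoint effector gene MAD2L1 measured 4.93, 5.04 and 4.92 FPKM in control and 2.35, 1.57 and 1.63 FPKM in heat for copy 1, a 2.64-fold fall, and copy 2 fell 4.14-fold. Its target cdc20, the activator of the anaphase-promoting complex, fell from 3.99 ± 0.784 to 1.11 ± 0.308 FPKM (SD, n = 3). The separase gene espl1, whose protease cleaves cohesin at anaphase, fell 4.50-fold.

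**Figure D2:**
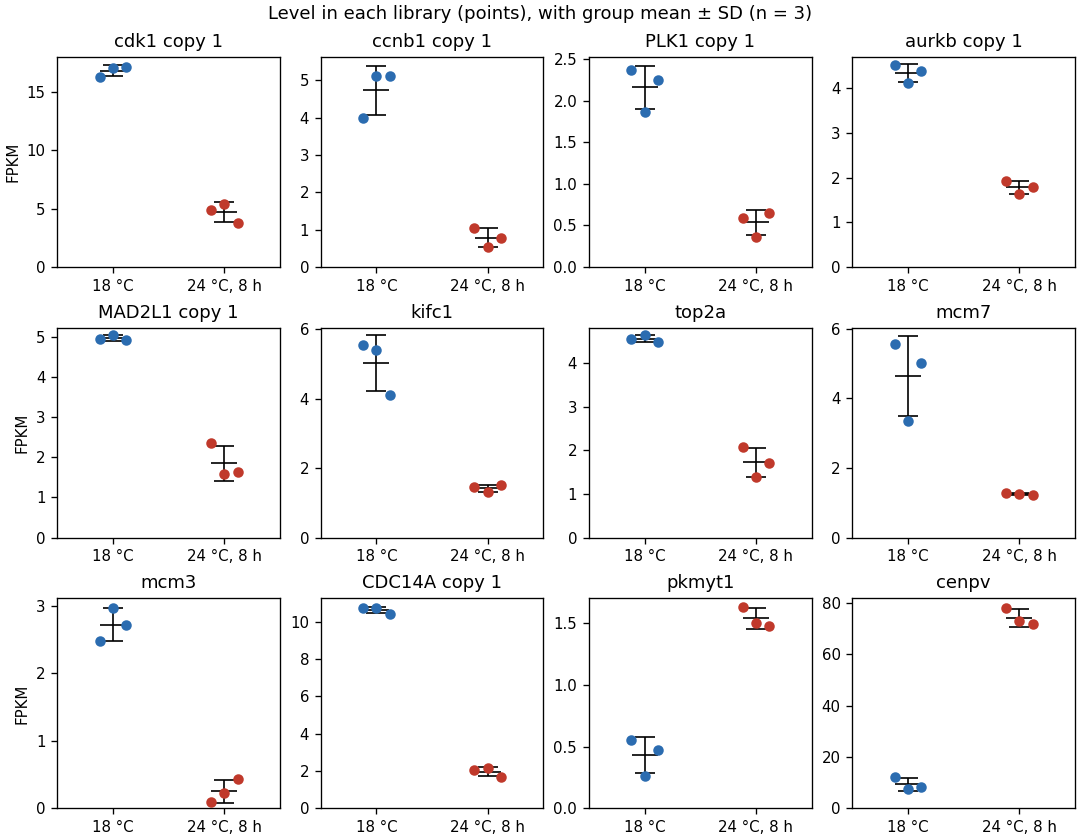
FPKM (y axis, linear from 0) in each library for 12 members, with blue points for the 3 libraries at 18 °C, red points for the 3 at 24 °C, and black bars for the mean ± SD. The points of the 2 groups are apart in every panel, with pkmyt1 and cenpv higher in heat and the others lower.

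Centromere genes split into 13 that fell and 1 that rose, beside 41.9% lower and 58.1% higher among all tested listed genes. The centromeric histone gene cenpa measured 1.09, 1.46 and 1.68 FPKM in control and 0.429, 0.62 and 0.056 FPKM in heat. Heat replicate 3 held a single count, and the fall of 4.66-fold was 2.67-fold without that library. Of the genes for the inner kinetochore network, cenph fell 6.32-fold, cenpl 5.12-fold, cenpu 4.06-fold, cenpm 2.76-fold and CENPT 2.35-fold.

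CENPI was listed in 2 rows. The row written cenpi fell 2.79-fold. The row written CENPI measured 0.223, 1.05 and 0.613 FPKM in control and fell 2.73-fold, but its call rested on the controls chosen. Without control replicate 2 its log2 fold change was -0.96 with an adjusted p of 0.06, and without control replicate 1 the fall was 4.13-fold. The histone-fold partners cenpw, cenps and CENPX, which assemble with CENPT, fell 3.73-fold, 2.90-fold and 6.37-fold. The outer kinetochore genes cenpe, which encodes a motor, and cenpf fell 3.36-fold and 3.02-fold.

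The gene cenpv rose, and in heat it was far more abundant than any other member. It measured 12.2, 7.36 and 8.43 FPKM in control and 78.3, 73.0 and 71.7 FPKM in heat, an 8.05-fold rise (log2 fold change 3.01 ± 0.12 SE, adjusted p = 8.53e-28). With median-of-ratios scaling the log2 fold change of cenpv was 2.09. No other member exceeded 10 FPKM in any heat library. In mammals its product is named for a centromere location, yet it carries the fold of a glutathione-dependent formaldehyde-activating enzyme and is not part of the inner kinetochore network.

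Mitotic kinesins and spindle midzone genes numbered 20, of which all 18 tested fell, beside 41.9% of all tested listed genes. The rows of KIF18A, a motor that limits the length of kinetochore microtubules, had too few counts to test. They measured 0.282 ± 0.135 and 0.249 ± 0.0856 FPKM in control and 0.0763 ± 0.0333 and 0.0487 ± 0.0268 FPKM in heat (SD, n = 3). The minus-end motor gene kifc1 had the highest level and measured 5.54, 5.40 and 4.09 FPKM in control and 1.45, 1.32 and 1.52 FPKM in heat, a 3.42-fold fall.

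The bipolar motor gene kif11, which pushes spindle poles apart, measured 2.73, 2.50 and 2.33 FPKM in control and 0.541, 0.69 and 0.392 FPKM in heat for copy 1. It fell 4.70-fold (adjusted p = 1.58e-13), its copy 2 fell 4.30-fold, and kif15, which shares part of its function, fell 4.11-fold. The chromokinesin genes kif4 and kif22, whose motors act on chromosome arms, fell 3.68-fold and 2.10-fold. The cytokinesis motor genes fell together, KIF23 by 4.73-fold, kif20a by 3.54-fold, its copy KIF20A by 3.47-fold, and the 3 forms of KIF20B, written kif20bb, Kif20b and kif20ba, by 3.66-fold, 3.28-fold and 2.53-fold. The Aurora A activator gene tpx2 fell 3.74-fold and tpx2-b 2.60-fold.

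PRC1, which bundles the overlapping microtubules of the spindle midzone, was listed in 4 rows. By mean level, copy 1 fell from 1.69 ± 0.813 to 0.244 ± 0.143 FPKM and copy 2 from 1.28 ± 0.276 to 0.366 ± 0.234 FPKM (SD, n = 3). Copy 3 measured 1.58, 1.04 and 0.937 FPKM in control and 0.089, 0 and 0.176 FPKM in heat. Its fall was 17.9-fold on 11 heat counts, 8.63-fold without heat replicate 2 and 30.6-fold without heat replicate 3. Copy 4 fell 9.31-fold, also on 11 heat counts.

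Kinesins outside the mitotic list moved in both directions, with 4 of 7 higher and 3 lower. Over all tested listed genes 58.1% rose and 41.9% fell, so these kinesins split much as the whole list did. The conventional kinesin gene Kif5b, whose motor carries organelles and vesicles along microtubules, measured 0.46, 0.343 and 0.495 FPKM in control and 1.33, 1.42 and 1.41 FPKM in heat. The heat libraries agreed closely, and the rise was 3.19-fold (adjusted p = 2.3e-09), with a log2 fold change of 1.67, or 0.76 with median-of-ratios scaling. The vesicle motor gene kif1c measured 1.67, 2.17 and 1.86 FPKM in control and 3.52, 4.19 and 3.77 FPKM in heat, a 2.004-fold rise. KIFC3, a minus-end motor gene, rose 2.15-fold from 0.835 ± 0.28 FPKM (SD, n = 3). With median-of-ratios scaling the rises of kif1c, KIFC3 and KIF21A no longer passed, at log2 fold changes of 0.09, 0.19 and 0.38 and adjusted p-values of 0.509, 0.404 and 0.126.

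KIF21A, a kinesin that in mammals restrains microtubule growth, was listed in 2 rows that moved in opposite directions. The row written KIF21A measured 0.433, 0.63 and 0.522 FPKM in control and 1.42, 1.51 and 0.988 FPKM in heat, a 2.46-fold rise. The row written Kif21a measured 1.52, 1.22 and 1.63 FPKM in control and 0.258, 0.267 and 0.195 FPKM in heat, a 5.92-fold fall. The row that was higher at 18 °C was thus the lower at 24 °C, in every library. Of the other falls, the atypical kinesin gene kif26aa fell 3.06-fold from 1.82 ± 0.0931 FPKM, and kif7, a regulator of Hedgehog signalling at the cilium, fell 2.07-fold from 0.776 ± 0.176 FPKM (SD, n = 3).

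**Figure D3:**
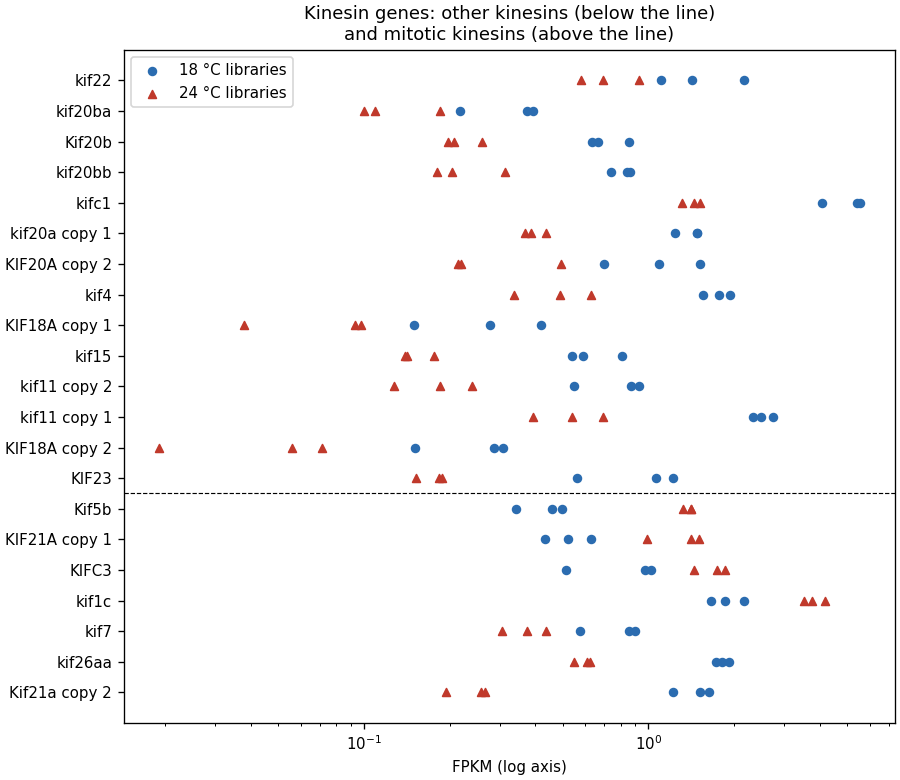
FPKM on a log axis (x) for the 21 kinesin rows (y), with blue circles for the libraries at 18 °C and red triangles for those at 24 °C. Above the dashed line every mitotic kinesin is lower in heat. Below it 4 of the 7 other kinesins are higher, beside 58.1% of all tested listed genes. For 3 of these 4 the rise did not pass with median-of-ratios scaling.

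The remaining members were regulators. CDC14A, a phosphatase that removes phosphates placed by CDKs, was among the most abundant members. Copy 1 measured 10.7, 10.7 and 10.4 FPKM in control and 2.05, 2.13 and 1.70 FPKM in heat. Both groups were tight, and the fall was 5.49-fold (log2 fold change -2.46 ± 0.14 SE, adjusted p = 1.78e-22). Copy 2 fell 6.56-fold from 4.39 ± 0.123 FPKM (SD, n = 3).

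HDAC1, a histone deacetylase recruited by retinoblastoma proteins to E2F target genes, had the highest control level of the members. It measured 17.0, 17.8 and 17.3 FPKM in control and 7.64, 8.56 and 9.20 FPKM in heat, a fall of 2.07-fold, and hdac1-b fell 2.68-fold. TFDP1, the partner of E2F factors on DNA, fell 2.15-fold in copy 1 and 3.62-fold in copy 2. The polo-like kinase gene plk3, which in mammals responds to cellular stress, measured 0.061, 0.061 and 0.299 FPKM in control and 0.354, 0.417 and 0.683 FPKM in heat. Its control counts were 3, 3 and 15, and its rise of 3.93-fold was 6.43-fold without control replicate 3. With median-of-ratios scaling it did not pass, at an adjusted p of 0.0846.

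**Figure D4:**
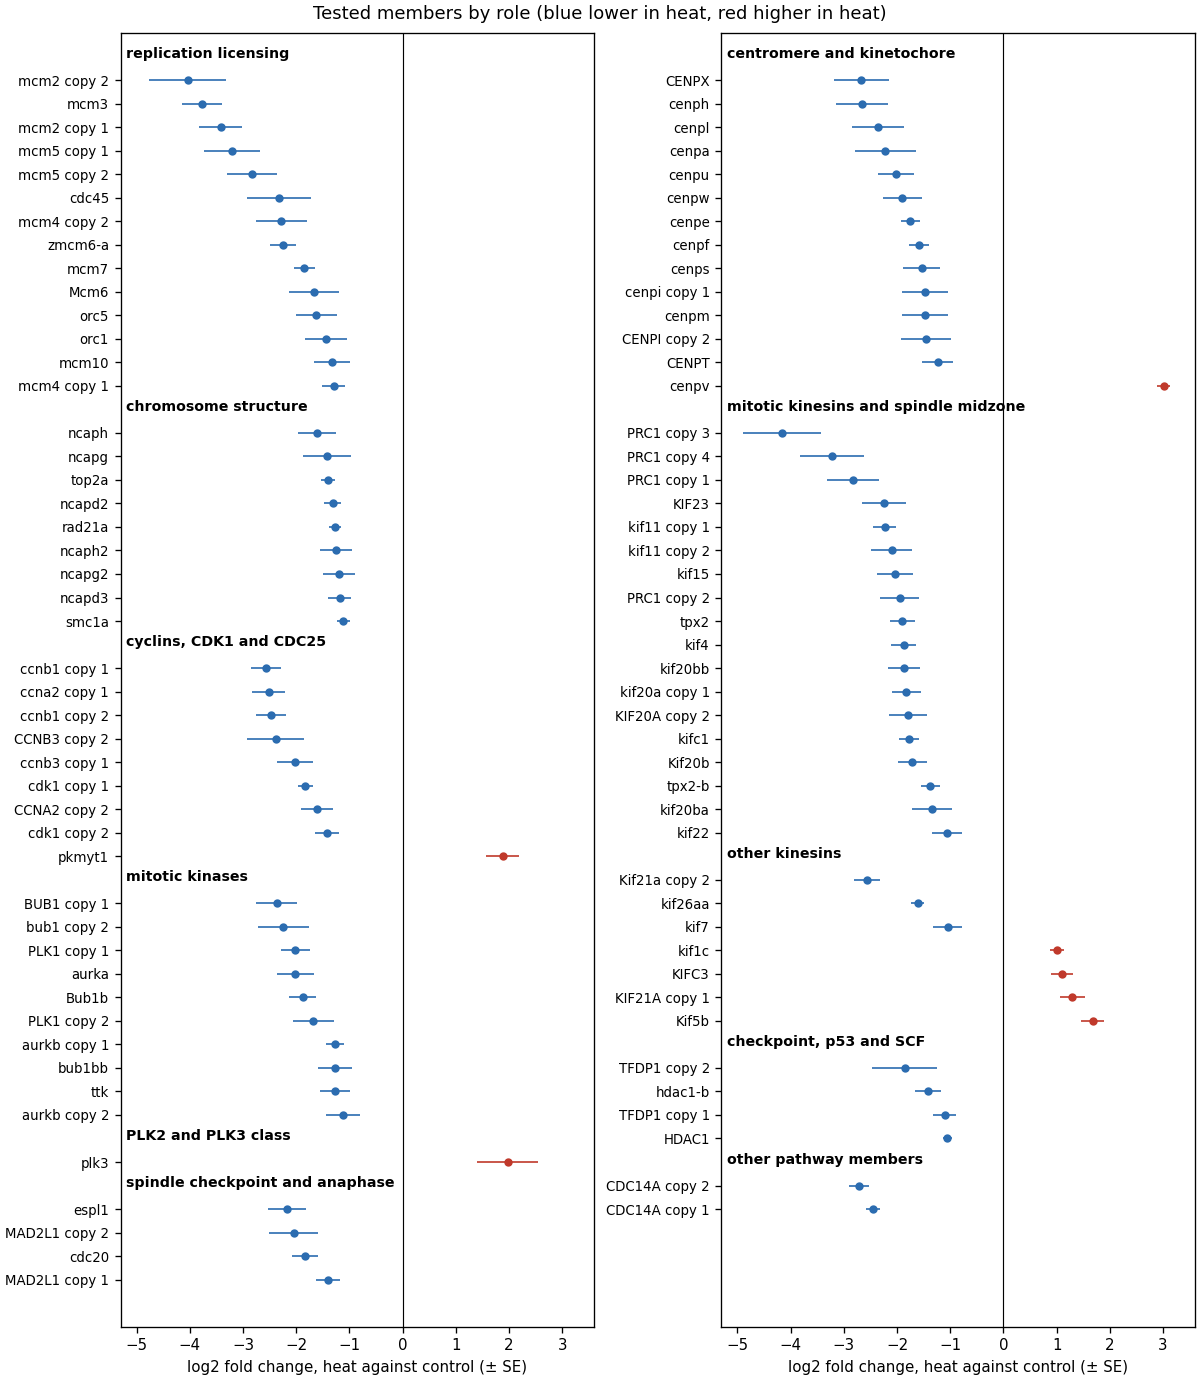
Log2 fold change (x axis, heat against control, limma-voom, bars show ± SE) of the 92 tested members (y axis), grouped by role. Blue points fell and red points rose, and the 7 red points are pkmyt1, plk3, cenpv, kif1c, KIFC3, KIF21A and Kif5b.

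Salmonid genomes retain many gene pairs from an ancient whole-genome duplication, and 18 symbols had several tested rows, 38 in all. All tested rows fell for 17 of these symbols, and KIF21A was the exception. A copy that did not change would not be listed, so such copies are missing from this count. As 92.4% of all tested members were lower, a shared direction says little about copies by itself. Where copies moved the same way, their log2 fold changes differed by a median of 0.36 and by at most 2.21, the latter for PRC1. No pair of members shared all 6 FPKM values. Counting may divide the reads of near-identical copies among their rows, which makes the level of a single copy uncertain.

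**Figure D5:**
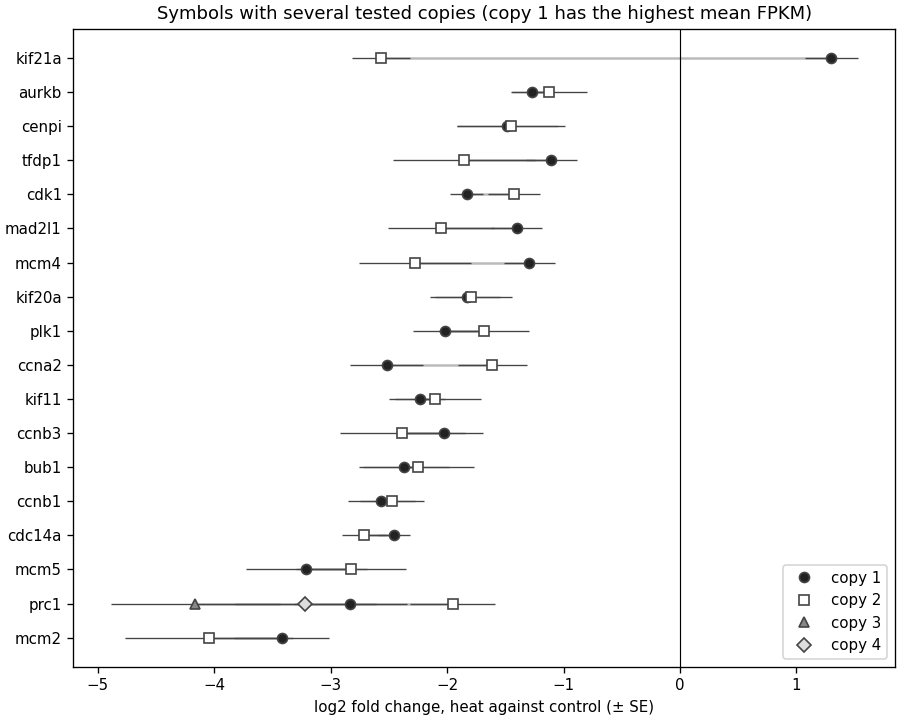
Log2 fold change (x axis, bars show ± SE) of each copy for the 18 symbols with several tested rows (y axis), with copies numbered from the highest mean FPKM. All copies lie left of 0 except 1 row of KIF21A.

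Proliferation genes that the rule did not take were listed in 82 rows, tubulins apart. Of the 74 tested, 73 fell and 1 rose, with a median log2 fold change of -1.77. Over all tested listed genes 41.9% fell and 58.1% rose. The most abundant was the thymidine kinase gene tk1, which salvages thymidine for DNA synthesis, at 38.8 ± 2.82 FPKM in control and 11.3 ± 1.84 FPKM in heat (SD, n = 3). The ribonucleotide reductase gene rrm2 fell from 17.8 ± 0.75 to 4.20 ± 0.7 FPKM and the sliding clamp gene pcna from 15.9 ± 2.45 to 6.06 ± 0.103 FPKM (SD, n = 3). The largest fitted falls were those of cdca7a, pole, which encodes the catalytic subunit of DNA polymerase epsilon, and gins1, a subunit of the replicative helicase. Their log2 fold changes were -3.94, -3.08 and -2.99, on 9, 19 and 22 counts over the heat libraries, so these sizes are loosely set. The proliferation marker mki67, named for its common use, fell from 2.75 ± 0.201 to 1.06 ± 0.105 FPKM (SD, n = 3). The row that rose was Pole4, from 3.43 ± 0.33 to 10.9 ± 0.813 FPKM, while the row written POLE4 fell from 4.16 ± 0.879 to 1.62 ± 0.496 FPKM (SD, n = 3). These POLE4 rows, for an accessory subunit of DNA polymerase epsilon, were picked out with their values known. Of the 8 tubulin rows, which dividing and resting cells both use, 6 fell and 2 rose. TUBB4B copy 1 rose from 13.5 ± 0.981 to 28.2 ± 1.19 FPKM, while TUBB4B copy 2 fell from 14.6 ± 0.836 to 3.92 ± 0.558 FPKM (SD, n = 3). TUBA1A copy 1, the most abundant tubulin row in control, fell from 24.1 ± 1.78 to 8.49 ± 0.962 FPKM (SD, n = 3). With median-of-ratios scaling, an alternative added for these genes after seeing the data, Pole4 still rose, while neither tubulin rise passed, at log2 fold changes of 0.15 for TUBB4B copy 1 and 0.44 for TUBB3.

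Other genes of the wider pathway lists gave 29 tested rows, of which 21 fell and 8 rose. The shares over all tested listed genes were 41.9% and 58.1%. The G1 kinase gene cdk4 fell from 3.61 ± 0.237 to 1.16 ± 0.311 FPKM, and the stress-induced GADD45B, which inhibits CDK1, rose from 2.85 ± 0.297 to 19.3 ± 0.931 FPKM (SD, n = 3). Its relative GADD45G fell 3.96-fold. The most abundant e2f4 row rose from 1.55 ± 0.22 to 3.63 ± 0.362 FPKM, while the other 2 rows of E2F4 fell. The largest fitted fall was that of the growth factor gene tgfb2, with a log2 fold change of -3.19 on 10 counts over the heat libraries. The MYC-family gene myclb rose, with a log2 fold change of 2.76. Of its relatives, mycb and mycl1b rose as well, while myc fell 3.31-fold. With median-of-ratios scaling 21 rows still fell and 3 rose, GADD45B, myclb and mycb. The rises of e2f4 and mycl1b did not pass, at log2 fold changes of 0.32 and 0.69. The CDK inhibitor genes cdkn1ba, CDKN1B and cdkn1bb rose, the first from 3.36 ± 0.655 to 9.89 ± 1.25 FPKM (SD, n = 3), and a further CDKN1B row had too few counts for a test and measured 0.617 ± 0.286 FPKM in control and 0.0543 ± 0.0941 FPKM in heat (SD, n = 3). With median-of-ratios scaling cdkn1bb did not pass, at a log2 fold change of 0.17.

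Hepatocyte markers were listed for 3 of 9 fixed genes, as is possible only for genes the authors called changed. Their summed level was 5885 to 6262 FPKM in control and 2684 to 2893 FPKM in heat, most of it the retinol carrier rbp4, which fell. The other 3 rows, APOB and 2 of FGA, rose, APOB from 0.0877 ± 0.0491 to 26.3 ± 0.547 FPKM (SD, n = 3). Leukocyte markers were listed for 4 of 12, in 7 rows of which 6 were higher, beside 58.1% of all tested listed genes. Their summed level was 1.83 to 2.48 FPKM in control and 11.7 to 14.2 FPKM in heat. CD163 alone gave 4 of these rows. Its copy 1 rose from 0.320 ± 0.156 to 6.52 ± 0.975 FPKM (SD, n = 3), on 4 counts over the control libraries. The row that was lower was csf1r1, from 0.284 ± 0.0741 to 0.0513 ± 0.0120 FPKM (SD, n = 3). The endothelium and stroma list held col1a1b alone of 7 markers, at 21.9 to 24.3 FPKM in control and 8.82 to 9.40 FPKM in heat. The bile duct list held krt18 alone of 5, at 83.4 to 91.0 FPKM in control and 172.4 to 178.9 FPKM in heat. Pancreas markers were listed for 1 of 5, the insulin gene, at 0 to 0.124 FPKM summed in control and 2.63 to 3.73 FPKM in heat. No erythrocyte marker was listed. These markers moved with the groups, and their part in the falls of the cell cycle genes was not tested.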

How the data were processed

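Per the labels' protocols, cDNA libraries were made from total liver RNA. The submitters' processing notes name Bowtie2 2.2.8 and StringTie. For the build, annotation and the test behind the deposited p-values and log2 fold changes, the entry is: not given in the sources used here. The authors deposited counts and FPKM values for each gene in each library, in fixed-width text of 8 characters per column. The 822 wrapped annotation lines were left out. Identifiers are truncated, so copies are told apart by their values alone.

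All values in the count columns were whole numbers, but an earlier check by code could not establish them as counts in the fixed-width layout. Limma-voom (limma 3.58.1, R 4.3.3) therefore replaced a count model. Library totals were recovered from 451 genes with at least 200 counts and 5 FPKM, and p was adjusted over all 4766 tested genes. The code was tested on simulated data. Tables and figures used Python 3.11.15, pandas 2.3.3 and matplotlib 3.10.9.

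Members and lists were chosen with earlier results of these data known. Roles followed symbol prefixes, and zmcm6-a was placed by its description. Prefix matches to other genes were removed by identity. All members are named. Of the proliferation and wider pathway genes the 3 most abundant over all libraries and the 3 most changed are named, tubulins being described apart. GADD45G, further MYC-family rows and the checkpoint and anaphase rows outside the rule were added beside their relatives. The alternatives were scaling, filter, pseudocount, replicate block, leaving out each library, and membership.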

Additional observations from a re-analysis of the deposited data

How the results depend on the processing

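Of the 92 tested members, all kept their direction under every alternative run. The authors had listed genes for changes of at least 2-fold in these same libraries, so kept directions and calls were largely set in advance. Without each library in turn, 1990 to 1996 of all 4766 tested genes were called lower, beside 1996 with all libraries. Median-of-ratios scaling ended 4 calls, all rises, leaving 3 members higher, and leaving out control replicate 2 ended 1, that of CENPI copy 2. The median log2 fold change of the members was -2.70 with median-of-ratios and -2.28 with TMM scaling, which moved the median of all tested genes by -0.91 and -0.49. A change of scaling shifts all genes nearly alike, so the gap between members and all tested genes could hardly move. It was -2.93 under both, beside -2.92. With limma on log2(FPKM + 0.1) and log2(FPKM + 1) the median was -1.47 and -0.76, since a pseudocount shrinks the change of low genes. The gap to all tested genes was then -2.52 and -1.23. The pathway annotation alone gave 29 lower members, 1 higher and a median of -1.87, and 1 row per symbol gave -1.62. Without each library in turn, 84 to 85 members were lower, 7 were higher, and the median ran from -1.79 to -1.71. Same-numbered libraries did not deviate together (correlations of 0.027, 0.012 and -0.0093), so the numbers are not known to pair samples, and with a replicate block 85 were lower and 7 higher, with a median of -1.77. The edgeR and DESeq2 fits listed on condition were not run. Depth limits the folds of members with few heat counts.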
